A study of Mus musculus with 16 samples.

Results

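Complement transcripts were followed in myeloid cells sorted from the healing interface between tendon graft and bone after anterior cruciate ligament reconstruction (ACLR). They come from 9 genes of the complement system, chosen by name: the C1q chain genes C1qa, C1qb and C1qc, the component C3, factor B (Cfb), properdin (Cfp), and the anaphylatoxin receptor genes C3ar1, C5ar1 and C5ar2. All 9 were found by name among the 20200 genes of the deposited count table. Of these, 8 passed a filter on low values (a mean of 3 or more in any group, in counts scaled to library size, CPM), as did 11998 genes in all, and Cfb did not.

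All mice were wild-type C57BL/6 by the labels (C57BL/6J in the methods), male and 12 weeks old at surgery by the methods, and all had the operation, so no group stands for unoperated tissue. Cells were harvested from the tissue around the graft on day 1 or day 14, and live CD45+ cells negative for a set of lineage antigens were sorted into 4 populations. CD9+ macrophages were Ly6G- CD11b+ F4/80+ CD9+, CX3CR1+ macrophages were F4/80+ CX3CR1+ CD9-, F4/80- myeloid cells were Ly6G- CD11b+ F4/80-, and neutrophils were Ly6G+ Ly6C+. Rare cells positive for both CD9 and CX3CR1 fell into the CD9+ gate. Day and population make 8 groups of 2 libraries, 16 in all, and each library holds cells pooled from several mice. The methods give fewer mice than separate pools for 16 libraries would need, so populations of the same day share mice, and the spread within a group is one between pools.

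Complement is a cascade of plasma and tissue proteins that marks targets for removal and calls in leukocytes. C1q recognises antibody complexes and dying cells and starts the classical pathway. C3 is the component on which all pathways meet, factor B and properdin build and stabilise the convertase of the alternative pathway, and cleavage of C3 and C5 releases the anaphylatoxins. C3ar1 encodes the receptor of the C3-derived anaphylatoxin, C5ar1 the classical receptor of the C5-derived one, and C5ar2 an alternative receptor of the same ligand that does not signal through G proteins. Unlike most plasma complement proteins, which the liver makes, C1q is made chiefly by macrophages and related cells.

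The sorted populations carried the transcripts of their labels, but Cd9 and Cx3cr1 were not confined to their gates. F4/80 (Adgre1) lay between 119.9 and 216.3 CPM in the 8 macrophage libraries and between 8.40 and 13.8 CPM in F4/80- cells, and the summed level of 5 neutrophil markers was 9434 to 12530 CPM in neutrophils and 221.1 to 648.7 CPM elsewhere. Cd9 averaged 148.1 and 162.4 CPM in CD9+ macrophages and 19.7 and 6.54 CPM in CX3CR1+ macrophages on days 1 and 14. It averaged 107.6 and 117.0 CPM in F4/80- cells, and neutrophils held more than CD9+ macrophages (674.4 and 345.3 CPM). Cx3cr1 averaged 140.0 and 271.8 CPM in CX3CR1+ macrophages, and 83.0 and 92.6 CPM in CD9+ macrophages. It was at 20.3 and 39.2 CPM in F4/80- cells and 9.01 and 3.23 CPM in neutrophils. Totals ran from 9233952 to 19814119 counts per library. The CD9+ libraries of day 1 were the least alike (Pearson correlation of log2 CPM across genes 0.935, against 0.976 to 0.988 in the other groups). A CX3CR1+ library of day 14, replicate 2, stood apart by stromal and red cell transcripts: its 5 stromal markers summed to 80.4 CPM against 2.17 CPM in its partner, and its 2 red cell markers to 43.3 CPM against 5.91 CPM. Where leaving out this CX3CR1+ library changed a call, the value without it is given. The stromal markers also differed between the neutrophil libraries of day 1, summing to 10.2 and 48.4 CPM.

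The C1q genes lie side by side on chromosome 4 of mm10, all on the minus strand: C1qb from 136880129 to 136886187, C1qc from 136889804 to 136893065 and C1qa from 136895917 to 136898803. RefSeq promoter windows of GRCm38.p6, 250 bases before to 50 bases after the start, were given for C1qb (chr4:136886151-136886450, minus strand) and C1qc (chr4:136892865-136893164, minus strand). They are shown because the C1q genes followed each other most closely of all members; capitals mark the core motif GAGGAA of PU.1, a lineage factor of myeloid cells, read on either strand.

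C1qb: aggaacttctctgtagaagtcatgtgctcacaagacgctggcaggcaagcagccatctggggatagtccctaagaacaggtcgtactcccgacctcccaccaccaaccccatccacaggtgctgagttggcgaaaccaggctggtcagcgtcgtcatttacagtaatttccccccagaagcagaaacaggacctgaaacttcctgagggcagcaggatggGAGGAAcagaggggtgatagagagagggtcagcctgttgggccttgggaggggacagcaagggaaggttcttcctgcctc

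C1qc: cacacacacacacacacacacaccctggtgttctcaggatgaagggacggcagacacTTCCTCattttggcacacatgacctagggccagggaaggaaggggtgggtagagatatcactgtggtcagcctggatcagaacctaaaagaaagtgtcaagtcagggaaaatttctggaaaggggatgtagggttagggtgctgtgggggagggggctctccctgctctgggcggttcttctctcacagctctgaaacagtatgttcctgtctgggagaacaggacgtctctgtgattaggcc

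Of the 2 windows, 2 held the PU.1 core, 30 bases before the start in C1qb and, on the reverse strand as TTCCTC, 193 bases before it in C1qc. This motif occurs in 28.3% of all 32851 promoter windows of this length. Neither window held a C/EBP motif TTGCNNAA, a gamma-activated site TTCNNNGAA or an E box CACGTG, found in 10.8%, 8.3% and 7.15% of all windows.

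C1q transcripts marked both F4/80+ populations on day 1 and stayed high in CD9+ macrophages alone of the sorted populations on day 14. In CX3CR1+ macrophages all 3 chains fell between the days by 7.33- to 11.7-fold, and this change differed from that of CD9+ macrophages. Values are given in CPM scaled with TMM factors, which correct for library composition, for each of the 2 libraries.

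C1qa, the gene of the A chain, was at 40.0 and 85.7 CPM in the CD9+ libraries of day 1 and at 72.5 and 108.8 CPM in those of day 14. The CX3CR1+ libraries held 56.7 and 46.7 CPM of C1qa on day 1 and 6.43 and 7.31 CPM on day 14. The ranges of the macrophage populations overlapped on day 1, and on day 14 both CD9+ libraries lay far above both CX3CR1+ libraries. C1qb, the gene of the B chain, was at 101.9 and 126.2 CPM in CD9+ cells on day 1 and at 106.8 and 183.0 CPM on day 14. In CX3CR1+ cells C1qb went from 157.8 and 123.8 CPM to 12.6 and 11.4 CPM. The day 1 values of the CX3CR1+ cells reached those of the CD9+ cells of day 14, while their day 14 values lay below every CD9+ library. C1qc, the gene of the C chain, was at 64.1 and 98.1 CPM, then 122.3 and 182.8 CPM, in CD9+ macrophages. In CX3CR1+ macrophages C1qc was at 82.6 and 66.7 CPM, then 10.1 and 10.3 CPM. The days of C1qc did not overlap in either population, as for 51.8% of all tested genes in CD9+ cells and 63.1% in CX3CR1+ cells.

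**Figure D1:**
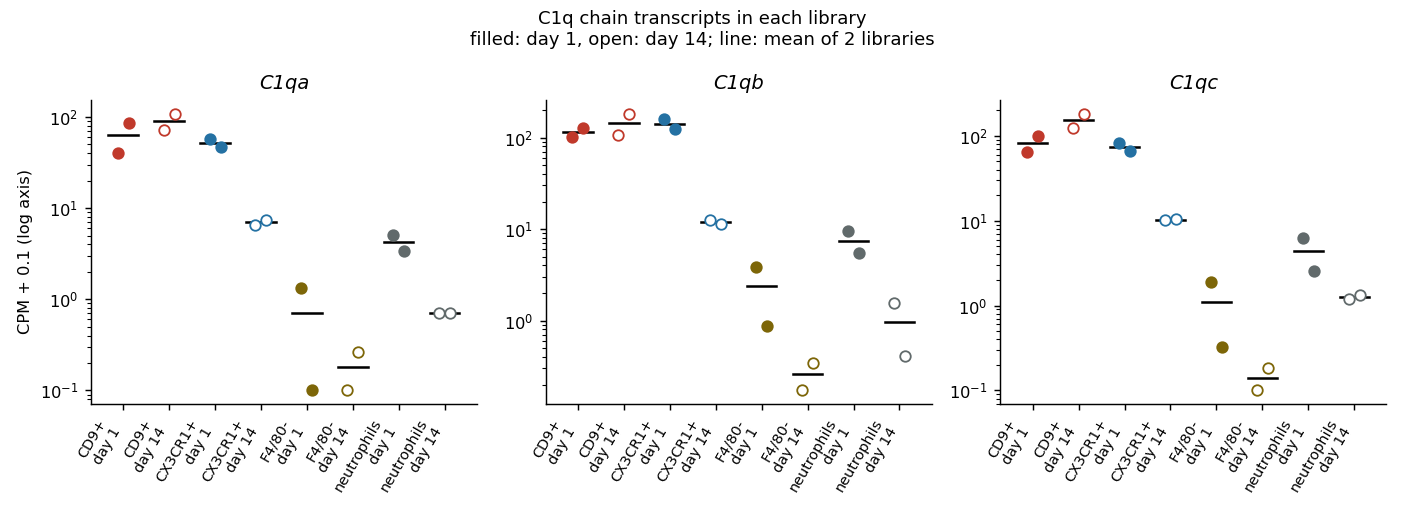
CPM + 0.1 (log axis) of C1qa, C1qb and C1qc in each of the 16 libraries, grouped by population and day; filled points are day 1, open points day 14 and lines the mean of 2 libraries. The CX3CR1+ libraries of day 14 sit between 6.43 and 12.6 CPM, below all CD9+ libraries, which start at 40.0 CPM.

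A gene was called in a comparison at an adjusted p under 0.05 (edgeR's quasi-likelihood test, Benjamini-Hochberg over all 11998 genes) together with a log2 fold change of 1 or more in size. In CX3CR1+ macrophages 6 of the 8 tested members were called lower on day 14, against 5.86% of all tested genes called in either direction. The log2 fold change was -2.91 for C1qa (standard error 0.50, adjusted p = 0.00139), -3.55 for C1qb (standard error 0.44, adjusted p = 7.96e-05) and -2.87 for C1qc (standard error 0.42, adjusted p = 0.000362), that is 7.53-, 11.7- and 7.33-fold lower. Without the CX3CR1+ library with stromal transcripts all 6 were called, with log2 fold changes between -4.01 (C3ar1) and -1.77 (C5ar2). In CD9+ macrophages none of the 3 chains was called, with log2 fold changes of 0.53 for C1qa (standard error 0.44, adjusted p = 0.442), 0.35 for C1qb (standard error 0.38, adjusted p = 0.576) and 0.91 for C1qc (standard error 0.38, adjusted p = 0.109). C1qc was called higher there, at a log2 fold change of 1.12, when libraries were scaled by size only.

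The difference between these changes was tested as an interaction, called at an adjusted p under 0.05. It was called for 5 of the 8 members, all lower in CX3CR1+ cells, against 2.84% of all tested genes. For C1qb it was -3.90 on the log2 scale (standard error 0.57, adjusted p = 0.00203), for C1qc -3.79 (standard error 0.56, adjusted p = 0.00215) and for C1qa -3.45 (standard error 0.67, adjusted p = 0.011). The C1qa difference lost its call with DESeq2 (log2 -3.46, adjusted p = 0.162). The call was also lost without replicate 2 of the CD9+ libraries of day 14 (-3.14, adjusted p = 0.0573), without CX3CR1+ replicate 1 of day 14 (-3.38, adjusted p = 0.077) and without CX3CR1+ replicate 2 of that day (-3.56, adjusted p = 0.0571).

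Set directly against each other, CD9+ and CX3CR1+ macrophages had 0 of 8 members called on day 1, where 8.23% of all tested genes were called. The largest day 1 difference among the C1q chains was -0.31 for C1qb (standard error 0.38, adjusted p = 0.64 in the quasi-likelihood test of edgeR); none of the 8 members had an unadjusted p under 0.05, and DESeq2 called 0 as well. On day 14, 5 of 8 were called, all higher in CD9+ macrophages, against 14.2% of all tested genes. C1qa was higher by 3.72 on the log2 scale (standard error 0.52, adjusted p = 6.36e-05), C1qb by 3.59 (standard error 0.44, adjusted p = 1.88e-05) and C1qc by 3.91 (standard error 0.43, adjusted p = 7.8e-06), which is 13.2-, 12.1- and 14.98-fold. The comparisons over time and between populations share libraries, so their values are not independent of each other. Without the CX3CR1+ library with stromal transcripts the day 14 differences were 3.80, 3.51 and 3.90 for C1qa, C1qb and C1qc, all called.

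The macrophage libraries also differed in the summed level of 4 macrophage markers (Adgre1, Csf1r, Cd68 and Mertk, with none at 0 in any macrophage library). It was 985.9 to 1372 CPM in CD9+ cells on day 1 and 701.1 to 1048 CPM on day 14, and 1348 to 1486 CPM, then 1166 to 1265 CPM, in CX3CR1+ cells. Among them Mertk, a receptor for the uptake of dying cells, went from 19.8 to 1.62 CPM (means of 2) in CX3CR1+ cells. In CD9+ cells Mertk went from 33.1 to 16.1 CPM. The other markers changed less in CX3CR1+ cells: Adgre1 from 177.0 to 153.6, Csf1r from 912.3 to 788.6 and Cd68 from 308.1 to 271.4 CPM. In CD9+ cells Csf1r went from 755.8 to 445.3, Cd68 from 250.8 to 233.2 and Adgre1 from 139.4 to 180.2 CPM. Summing 3 dendritic cell markers gave 8.60 to 8.89 CPM in CX3CR1+ cells on day 1 and 23.4 to 29.7 CPM on day 14. In CD9+ cells the sum was 6.34 to 10.4 CPM, then 9.19 to 9.28 CPM. Most of the CX3CR1+ sum was Flt3, at means of 7.95 and 24.2 CPM. Zbtb46 averaged 0.33 and 1.94 CPM there, and Xcr1 0.46 and 0.36 CPM. Stromal markers summed to 2.74 to 4.58 CPM in CD9+ cells on day 1 and to 27.6 to 36.0 CPM on day 14. The part of these shifts in the C1q result was not tested, and in bulk samples fewer cells of a type and less RNA per cell cannot be told apart.

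Outside the F4/80+ gates C1q transcripts were scarce. C1qa had 25 and 0 counts in the F4/80- libraries of day 1 and 0 and 2 counts on day 14, C1qb had 78 and 17, then 1 and 3 counts, and C1qc had 37 and 5, then 0 and 1 counts. Most of the F4/80- signal of day 1 thus sat in replicate 1. From the summed counts, CD9+ macrophages of day 14 held 938.1 times the C1qb level of F4/80- cells (95% interval 366.0 to 3445). For C1qc, with 1 count in the F4/80- libraries, the ratio was 3958 (95% interval 709.8 to 156400), and for C1qa, with 2 counts, 1176 (95% interval 325.2 to 9720); these exact intervals cover counting error only. On day 1 the fitted folds of CD9+ against F4/80- cells were 103.9 for C1qa, 50.2 for C1qb and 80.5 for C1qc, all called (largest adjusted p = 2.89e-06), where 5 of 8 members and 15.4% of all tested genes were called. CX3CR1+ against F4/80- cells gave 85.9-, 62.1- and 74.2-fold on day 1, with 5 of 8 members and 21.1% of genes called.

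Neutrophils held little C1q, and less of it on day 14 than on day 1. On day 1 they were at 4.93 and 3.32 CPM for C1qa, 9.42 and 5.34 CPM for C1qb, and 6.20 and 2.45 CPM for C1qc. On day 14 they were at 0.60 and 0.62 CPM for C1qa, 1.44 and 0.31 CPM for C1qb, and 1.08 and 1.23 CPM for C1qc, or 3 to 12 counts per library. The days did not overlap for any chain, as for 64% of all tested genes in neutrophils. The fall between the days was called for all 3 chains, at log2 fold changes of -2.75 for C1qa (standard error 0.84, adjusted p = 0.0242), -3.14 for C1qb (standard error 0.70, adjusted p = 0.00357) and -1.91 for C1qc (standard error 0.66, adjusted p = 0.0424, or 0.0569 with DESeq2). It moved with the summed level of the macrophage markers, which was 558 and 576.6 CPM in the neutrophil libraries of day 1 and 178.1 and 184.5 CPM on day 14, with mean Csf1r at 372.4 and 112.8 CPM and none of the 4 at 0 in both libraries of a day. The part of other cells in the neutrophil values was not tested. With C3ar1, 4 of 8 members were called lower in neutrophils, against 14.1% of all tested genes. Leaving out a single library cost calls: without neutrophil replicate 2 of day 14 only 1 member was called, and without replicate 1 of that day or replicate 1 of day 1, 2 were.

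The shares of the chains were compared per gene length. Per kilobase of exon, C1qb made up 56.7% and 46.5% of the summed C1q level in the CD9+ libraries of day 1, 42.5% and 45.8% on day 14, 59.9% and 58.9% in CX3CR1+ cells on day 1, and 50.4% and 45.9% on day 14. C1qc made up 20.1% and 20.4%, 27.4% and 25.8%, 17.6% and 17.9%, and 22.7% and 23.3% in the same order. The C1qc share was thus higher on day 14 than on day 1 in both libraries of both populations, and the C1qb share lower; these shares carry no test. On that scale C1qb ranked 321, 218 and 242 among 11994 genes with a known length in CD9+ cells of days 1 and 14 and CX3CR1+ cells of day 1, and 3367 in CX3CR1+ cells of day 14. Over the 16 libraries, log2 CPM of C1qa correlated with that of C1qc at 0.991 and with C1qb at 0.978, the highest values for any gene. After the other chains, the genes most like C1qa, C1qb and C1qc were Itga9 (0.971), Dagla (0.971) and Ms4a7 (0.959). The points share libraries and the contrast between macrophages and other cells, so these values only describe the pattern.

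C3ar1, the C3a receptor gene (chromosome 6, 122847138 to 122856161), behaved like the C1q genes in macrophages but reached further into the F4/80- cells. In CD9+ macrophages it was at 184.0 and 202.2 CPM on day 1 and at 159.1 and 316.1 CPM on day 14. In CX3CR1+ macrophages it went from 104.7 and 148.8 CPM to 7.82 and 20.5 CPM. The days overlapped in CD9+ cells and were far apart in CX3CR1+ cells, where the higher day 14 value came from the library with stromal transcripts. F4/80- cells held 28.9 and 28.0 CPM, then 18.1 and 21.1 CPM, and neutrophils 9.79 and 9.10 CPM, then 1.20 and 1.44 CPM.

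The fall in CX3CR1+ macrophages was -3.16 on the log2 scale (standard error 0.36, adjusted p = 3.73e-05), or 8.97-fold. It was -4.01 without the library with stromal transcripts and -2.63 without its partner, called both times. CD9+ macrophages changed by 0.30 (standard error 0.32, adjusted p = 0.556), and the difference between the populations was -3.46 (standard error 0.47, adjusted p = 0.00119). On day 14 C3ar1 was 16.8-fold higher in CD9+ than in CX3CR1+ cells (log2 4.07, standard error 0.37, adjusted p = 1.03e-06). The order of levels on day 1 was CD9+, CX3CR1+, F4/80-, neutrophils; the difference between the first 2 was not called (log2 0.61, standard error 0.32, adjusted p = 0.219) and each later step was called. On day 14 the order was CD9+, F4/80-, CX3CR1+, neutrophils, and the middle pair did not pass (log2 of CX3CR1+ against F4/80- cells -0.47, standard error 0.36, adjusted p = 0.333). Without the library with stromal transcripts that pair was called, at -1.33 (adjusted p = 0.0153). The CD9+ level was 12.1-fold that of F4/80- cells on day 14 (adjusted p = 4.86e-06), where 4 of 8 members were called and 7.7% of all tested genes. In neutrophils C3ar1 fell by 2.83 on the log2 scale (standard error 0.54, adjusted p = 0.00113), beside the fall of the macrophage markers given above. Its distance from the mean change of the macrophages was -1.39 (standard error 0.61, adjusted p = 0.149), which was called when libraries of a day with the same number were blocked together (adjusted p = 0.0388), with DESeq2 (adjusted p = 0.0454) and without CX3CR1+ replicate 1 of day 14 (adjusted p = 0.0401). The genes with the most similar pattern over the 16 libraries were Pmepa1 (0.980), Prune2 (0.974) and Myo1e (0.973), ahead of any C1q chain, whose highest value was 0.761 for C1qb.

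**Figure D2:**
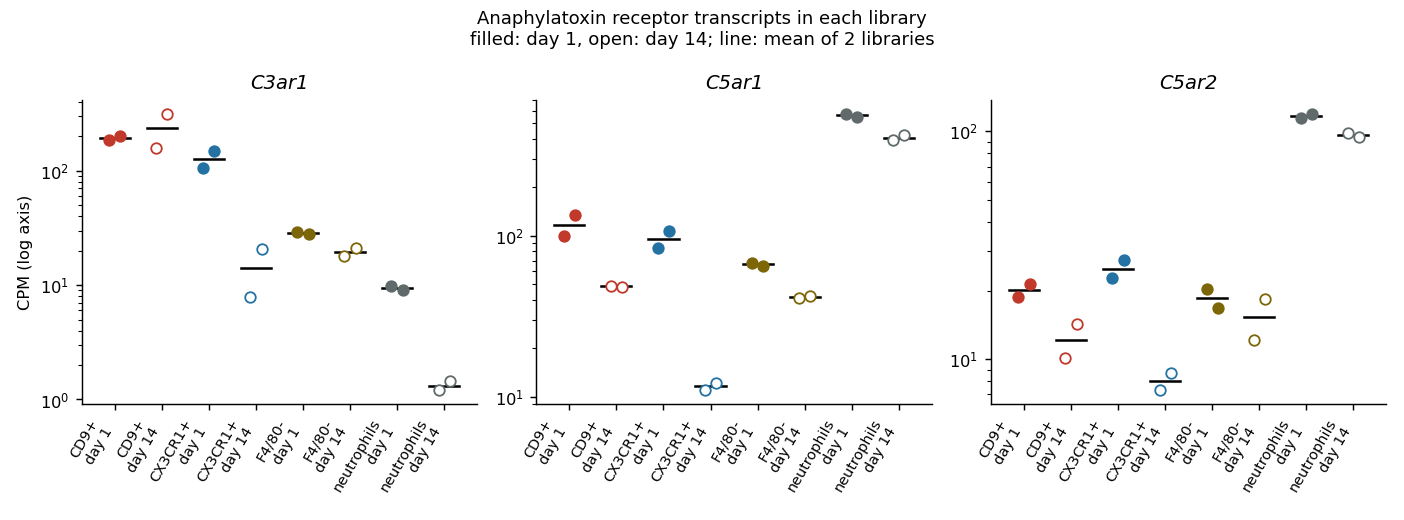
CPM (log axis) of C3ar1, C5ar1 and C5ar2 in each of the 16 libraries; filled points are day 1, open points day 14 and lines the mean of 2 libraries. C3ar1 is highest in CD9+ macrophages, while C5ar1 and C5ar2 are highest in neutrophils (391.8 to 574.5 and 94.9 to 119.8 CPM).

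The C5a receptors were transcripts of neutrophils above all, and both were called lower on day 14 in CX3CR1+ macrophages. C5ar1 and C5ar2 are neighbours on chromosome 7 (16246743 to 16259540 and 16234585 to 16244154, both on the minus strand, not overlapping). C5ar1 was at 574.5 and 547.4 CPM in neutrophils on day 1 and at 391.8 and 423.6 CPM on day 14. In CD9+ macrophages it was at 99.2 and 134.2 CPM, then 49.1 and 48.3 CPM, and in CX3CR1+ macrophages at 84.2 and 106.7 CPM, then 10.9 and 12.2 CPM. F4/80- cells held 67.4 and 65.3 CPM on day 1 and 41.0 and 42.3 CPM on day 14. The days did not overlap in any of the 4 populations, day 1 being higher in each; in F4/80- cells and neutrophils 61.5% and 64% of all tested genes had days that did not overlap.

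C5ar1 fell by 3.04 on the log2 scale in CX3CR1+ macrophages (standard error 0.17, adjusted p = 4.9e-08), 8.24-fold, and by 1.26 in the CD9+ cells (standard error 0.15, adjusted p = 6.81e-05), 2.39-fold. In F4/80- cells the change was -0.67 (standard error 0.15, adjusted p = 0.0141) and in neutrophils -0.46 (standard error 0.14, adjusted p = 0.0271), both short of the fold threshold. Each difference between these changes that was tested was called. The CX3CR1+ change was 1.78 below that of CD9+ cells (standard error 0.22, adjusted p = 0.000662). The change in F4/80- cells lay 1.48 above the mean of the macrophages (standard error 0.19, adjusted p = 0.00119) and that in neutrophils 1.69 above it (standard error 0.18, adjusted p = 2.43e-05). In the comparison of F4/80- cells C5ar1 was the 1 member of 8 called, with 1.1% of all tested genes, and in that of neutrophils it was 1 of 4, with 14% of all tested genes. On day 14 C5ar1 was 4.21-fold higher in CD9+ than in CX3CR1+ macrophages (adjusted p = 2.94e-07), and CX3CR1+ cells also fell below F4/80- cells, by 3.598-fold (adjusted p = 4.94e-07), where 4 of 8 members and 21.5% of all tested genes were called. Without the library with stromal transcripts 6 members were called there, C3ar1 and C5ar2 being added, and without F4/80- replicate 1 of day 14, 5 were, C5ar2 being added. C5ar1 was thus lowest in CX3CR1+ macrophages on day 14 and, on day 1, lowest in F4/80- cells; the CD9+ and F4/80- levels of day 14 did not pass the test (log2 0.22, standard error 0.15, adjusted p = 0.412).

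C5ar2 was likewise highest in neutrophils on both days. It was at 114.6 and 119.8 CPM in neutrophils on day 1 and at 98.1 and 94.9 CPM on day 14. CX3CR1+ macrophages went from 22.8 and 27.2 CPM to 7.30 and 8.70 CPM, a change of -1.64 on the log2 scale (standard error 0.22, adjusted p = 0.000145). CD9+ macrophages went from 18.8 and 21.5 CPM to 10.1 and 14.2 CPM (log2 -0.72, standard error 0.22, adjusted p = 0.0315, short of the fold threshold). The difference between the CX3CR1+ and CD9+ changes was -0.92 (standard error 0.31, adjusted p = 0.134) and was not called. On day 14 the level of C5ar2 in CD9+ cells was 0.61 above that in CX3CR1+ cells (standard error 0.23, adjusted p = 0.0627), also not called. F4/80- cells held 20.3 and 16.9 CPM, then 12.2 and 18.4 CPM, with overlapping days. On day 14 C5ar2 in CX3CR1+ cells was 0.93 below that of F4/80- cells on the log2 scale (standard error 0.22, adjusted p = 0.00372), short of the fold threshold, and was called at -1.07 without the library with stromal transcripts (adjusted p = 0.0138) and at -1.21 without F4/80- replicate 1 of day 14 (adjusted p = 0.0014). On day 1 no pair among the 3 populations other than neutrophils was called for C5ar2, the smallest adjusted p being 0.109. The change in neutrophils was 0.90 above the mean of the macrophages (standard error 0.25, adjusted p = 0.0241), a call that was lost without either neutrophil library of day 14 (adjusted p of 0.086 and 0.0797) and without either of day 1 (0.058 and 0.0624).

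Per kilobase of exon, C5ar1 exceeded C5ar2 in every library. The ratio was 7.30 and 8.66 in the CD9+ libraries of day 1, 6.71 and 4.70 on day 14, 5.12 and 5.44 in CX3CR1+ macrophages on day 1 and 2.08 and 1.95 on day 14. It lay between 3.19 and 5.37 in F4/80- cells and between 5.54 and 6.95 in neutrophils. The CX3CR1+ libraries of day 14 therefore had the lowest ratios of the 16, with C5ar1 resting on 126 and 132 counts and C5ar2 on 84 and 94; the ratio itself was not tested. The genes most like C5ar1 over the libraries were Cd101 (0.978), Cd300lf (0.976) and Tpcn2 (0.966), and those most like C5ar2 were Ppp1r3b (0.982), Pilra (0.981) and Cd300lf (0.978). The C5a receptors correlated with each other at 0.956 over the 16 libraries and at 0.891 over the 12 that are not neutrophils.

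**Figure D3:**
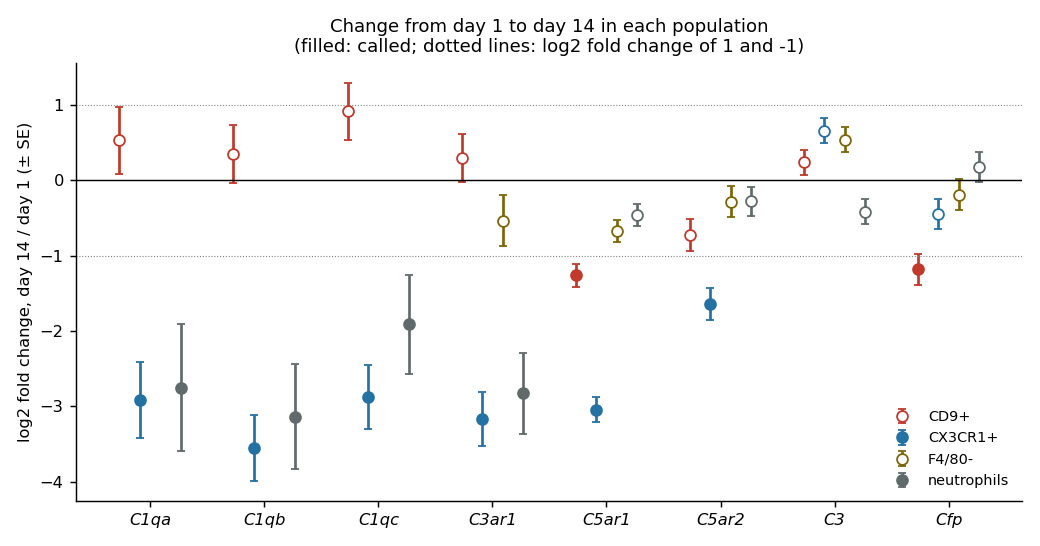
Log2 fold change from day 1 to day 14 (vertical axis, ± standard error) of the 8 tested members in the 4 populations; filled points were called. C1q chains are left out for F4/80- cells, where day 14 held 1 to 4 counts. The CX3CR1+ points for C1q, C3ar1, C5ar1 and C5ar2 lie between -3.55 and -1.64. The CD9+ points for C1q and C3ar1 lie between 0.30 and 0.91, and those for C5ar1 and C5ar2 at -1.26 and -0.72.

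C3 itself was abundant in every population, and its values in CX3CR1+ and F4/80- cells were higher on day 14 than on day 1. The gene (chromosome 17, 57203970 to 57228136) ranked between 55 and 132 among 11994 genes per kilobase in all 8 groups. It was at 3681 and 3382 CPM in neutrophils on day 1 and at 2644 and 2647 CPM on day 14. F4/80- cells held 1748 and 1644 CPM, then 2342 and 2594 CPM. CX3CR1+ macrophages held 1056 and 1116 CPM, then 1723 and 1707 CPM, and CD9+ macrophages 1350 and 1032 CPM, then 1646 and 1169 CPM. The days did not overlap in neutrophils, F4/80- cells and CX3CR1+ macrophages, and overlapped in CD9+ macrophages. Of all tested genes, 64%, 61.5% and 63.1% had days that did not overlap in neutrophils, F4/80- cells and CX3CR1+ macrophages.

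None of the 4 changes in C3 over time reached the fold threshold. The log2 fold change was 0.66 in CX3CR1+ macrophages (standard error 0.17, adjusted p = 0.0172, or 0.0941 without the library with stromal transcripts), 0.54 in F4/80- cells (standard error 0.17, adjusted p = 0.0723), 0.24 in CD9+ macrophages (standard error 0.17, adjusted p = 0.35) and -0.42 in neutrophils (standard error 0.17, adjusted p = 0.0779). The neutrophil change lay 0.87 below the mean of the macrophages (standard error 0.21, adjusted p = 0.0109), a call lost without neutrophil replicate 1 of day 14 (adjusted p = 0.0536) and without replicate 2 (adjusted p = 0.06). Between CX3CR1+ and CD9+ macrophages the changes in C3 differed by 0.42 (standard error 0.24, adjusted p = 0.414), which was not called. On day 1 C3 was lower than in neutrophils by 2.96-fold in CD9+ macrophages (adjusted p = 1.21e-06) and by 3.25-fold in CX3CR1+ macrophages (adjusted p = 4.66e-07). In those comparisons 7 of 8 members were called in each, against 49.5% and 51% of all tested genes. F4/80- cells stood between, 2.08-fold below neutrophils on day 1 (log2 -1.06, standard error 0.17, adjusted p = 5.31e-05). That difference dropped under the fold threshold in 6 of the alternatives tried, reaching -0.45 with scaling by library size only, and without replicate 1 of the neutrophil libraries of day 1 (-0.996) or replicate 2 of the F4/80- libraries of day 1 (-0.95). On day 14 no pair of populations was called for C3, although without CD9+ replicate 1 of that day CD9+ cells were called lower than F4/80- cells (-1.09) and neutrophils (-1.15). The genes most like C3 were Cd47 (0.941), Ebi3 (0.936) and Zfp148 (0.934).

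Cfp, the gene of properdin (chromosome X, 20925454 to 20931555), was expressed in all populations and was called lower over time in CD9+ macrophages. It was at 101.1 and 170.6 CPM there on day 1 and at 60.3 and 59.2 CPM on day 14. CX3CR1+ macrophages held 125.3 and 136.5 CPM, then 101.3 and 90.7 CPM, F4/80- cells 64.6 and 63.9 CPM, then 59.8 and 52.6 CPM, and neutrophils 169.2 and 119.6 CPM, then 157.7 and 168.4 CPM. The spread of the CD9+ libraries of day 1 was the widest of the macrophage groups, and their lower value still lay above both of day 14. The fall in CD9+ cells was -1.18 on the log2 scale (standard error 0.21, adjusted p = 0.00134); without CD9+ replicate 2 of day 1 it was -0.76 and no longer called. It was not called with scaling by library size only either (-0.97), nor with only the libraries compared (-1.17, adjusted p = 0.0649). With C5ar1, 2 of 8 members were called in CD9+ macrophages over time, against 8.23% of all tested genes, and 1 without that library. Scaling by library size only also gave 2, with C1qc in place of Cfp. The change of -0.45 in CX3CR1+ macrophages did not pass (standard error 0.20, adjusted p = 0.169), and the populations differed in their change by 0.73 (standard error 0.29, adjusted p = 0.204), or by 1.07 without CD9+ replicate 1 of day 1 (adjusted p = 0.00667). The change in neutrophils lay 0.99 above the mean of the macrophages (standard error 0.25, adjusted p = 0.0151), lost without neutrophil replicate 2 of day 1 (adjusted p = 0.0859) and replicate 2 of day 14 (adjusted p = 0.0743). On day 1 Cfp was 2.11-fold higher in CD9+ than in F4/80- cells and 2.04-fold higher in CX3CR1+ than in F4/80- cells, and both lost the call by falling under the fold threshold in several alternatives. The CD9+ difference was 1.08 on the log2 scale, 0.97 with upper quartile scaling, 0.78 with scaling by library size only and 0.65 without CD9+ replicate 2 of day 1. The CX3CR1+ difference was 0.99 with either scaling and 0.97 without CX3CR1+ replicate 2 of day 1. On day 14 neutrophils held 2.73-fold more than CD9+ macrophages (adjusted p = 1.83e-05) and 2.90-fold more than F4/80- cells (adjusted p = 1.01e-05), and both came under the fold threshold with scaling by library size only (-0.95 and -0.97). The genes most like Cfp were Tpm4 (0.949), Ehbp1l1 (0.939) and Stam2 (0.938).

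**Figure D4:**
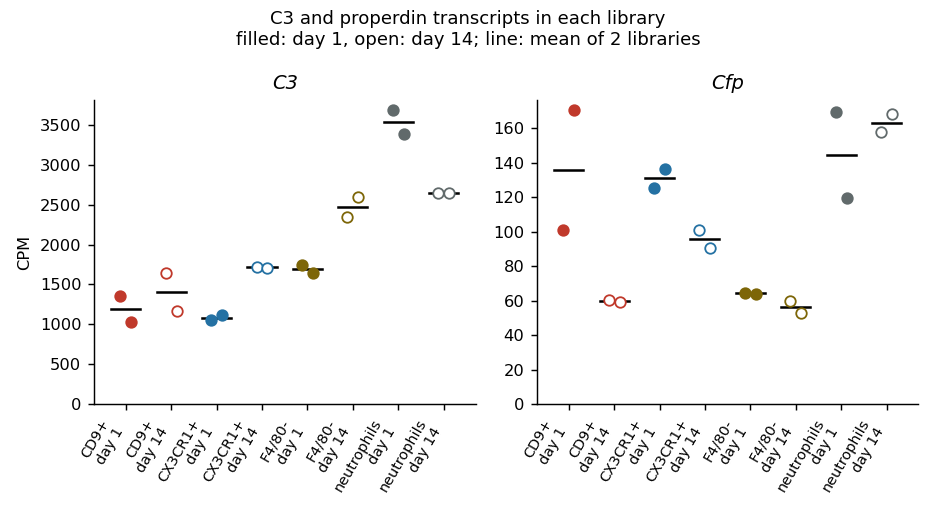
CPM (from 0) of C3 and Cfp in each of the 16 libraries; filled points are day 1, open points day 14 and lines the mean of 2 libraries. C3 lies between 1032 and 3681 CPM in all libraries, and Cfp between 52.6 and 170.6 CPM.

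Cfb, the gene of factor B (chromosome 17, 34856374 to 34862518), had 0 to 5 counts in each library and at most 0.40 CPM. It was not tested, and no fold is given. Its locus overlaps a neighbouring gene in the annotation, and C2, next to it in the genome, was at 0.34 CPM or less in each group mean. Whether the counting used strand is not given in the sources used here, so reads of overlapping genes may not have been told apart.

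The remaining comparisons set the members of neutrophils against those of other cells. F4/80- cells against neutrophils called 8 of 8 members on day 1 and 5 of 8 on day 14, where 49% and 48.7% of all tested genes were called. On day 1, C3ar1 was higher in F4/80- cells (3.01-fold, adjusted p = 0.00109) and the other 7 members higher in neutrophils. With only the libraries compared the day 1 count was 4, and it was 5 with scaling by library size and 4 without neutrophil replicate 1 of day 1. On day 14, CD9+ and CX3CR1+ macrophages against neutrophils called 7 and 6 of 8 members, beside 49.5% and 48% of genes. In these the C1q chains and C3ar1 were higher in macrophages and C5ar1 and C5ar2 higher in neutrophils, C5ar1 by 35.2-fold over CX3CR1+ cells (adjusted p = 1.81e-11) and by 8.37-fold over CD9+ cells (adjusted p = 8.95e-10). In F4/80- cells over time 1 of 8 members was called, beside 3.25% of all tested genes. It was C1qb, on 95 summed counts against 4, a ratio of 14.6 (95% interval 5.52 to 54.7); without replicate 1 of the F4/80- libraries of day 1, without replicate 1 of day 14 and without replicate 2 of day 14, 0 members were called.

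Of 38 other complement genes listed for comparison, 23 were in the table and 15 passed the filter: 3 of the classical and lectin start, 1 terminal component, 4 regulators and 7 receptors. Over time, 3 of the 15 were called in CX3CR1+ macrophages (1 higher, 2 lower, median log2 fold change -0.11), 4 in CD9+ macrophages (2 higher, 2 lower, median -0.11) and 6 in neutrophils (1 higher, 5 lower, median 0.01), against 5.86%, 8.23% and 14.1% of all tested genes. In F4/80- cells, where 3.25% of all tested genes were called, 0 of the 15 were called by edgeR and by DESeq2, while 6 had an unadjusted p under 0.05. Of these, Calr (log2 -0.95, adjusted p = 0.00133) and Lrp1 (log2 -0.88, adjusted p = 0.0315) missed only the fold threshold. With only the libraries compared 2 were called there (Cd55 and Fcnb), and without F4/80- replicate 1 of day 14, 1 was (Calr); with the replicate number as a block 1 was (Fcnb). For the 8 members the medians were -2.89 in CX3CR1+ and 0.27 in CD9+ macrophages and over all tested genes 0.03 and 0.00; these medians carry no test. Between the macrophage populations, 3 of the 15 were called on day 1 (1 with only the libraries compared) and 4 on day 14, all higher in CD9+ cells, against 8.23% and 14.2% of all tested genes. Without the library with stromal transcripts the day 14 count was 3, Calr being lost.

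Cd55, which encodes decay-accelerating factor, a membrane inhibitor of the convertases, was listed at 0 in both CX3CR1+ libraries of day 1 and at 0.35 and 3.15 CPM on day 14, the higher value in the library with stromal transcripts. These rest on 4 and 34 counts, and the call of Cd55 as higher on day 14 was lost without that library (adjusted p = 0.397) and without either library of day 1 (adjusted p of 0.13 and 0.108). Neutrophils held 98.4 and 74.5 CPM, then 143.1 and 147.6 CPM. CD9+ macrophages held 9.02 and 0.95 CPM on day 1 and 17.8 and 23.7 CPM on day 14, a change of 1.96 on the log2 scale (standard error 0.58, adjusted p = 0.0324, or 0.137 with DESeq2). F4/80- cells went from 18.1 and 16.2 CPM to 5.07 and 4.64 CPM, a change of -1.82 (standard error 0.57, adjusted p = 0.0819) that was not called.

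Fcnb, the gene of ficolin B, a lectin pathway sensor of myeloid cells, was highest in F4/80- cells, at 356.6 and 376.5 CPM on day 1 and 748.4 and 780.2 CPM on day 14. CD9+ macrophages held 265.2 and 96.1 CPM, then 486.4 and 310.9 CPM, and CX3CR1+ macrophages 10.6 to 15.6 CPM on the 2 days. Neutrophils held 87.6 and 52.2 CPM, then 179.2 and 171.9 CPM. Fcnb was called higher on day 14 in neutrophils (log2 1.33, adjusted p = 0.0098) and in CD9+ cells (log2 1.14, adjusted p = 0.0313). The CD9+ call was lost with only the libraries compared. In F4/80- and CX3CR1+ cells the change was not called (adjusted p = 0.0792 and 0.66). CD9+ cells exceeded CX3CR1+ cells by 3.98 on the log2 scale on day 1 (standard error 0.39, adjusted p = 5.75e-06) and by 4.79 on day 14 (standard error 0.40, adjusted p = 4.81e-07). The ligand gene of the C5a receptors, Hc (complement C5), had 67 and 43 counts in neutrophils of day 1 and 17 and 41 on day 14, and 0 to 3 counts in every other library.

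**Figure D5:**
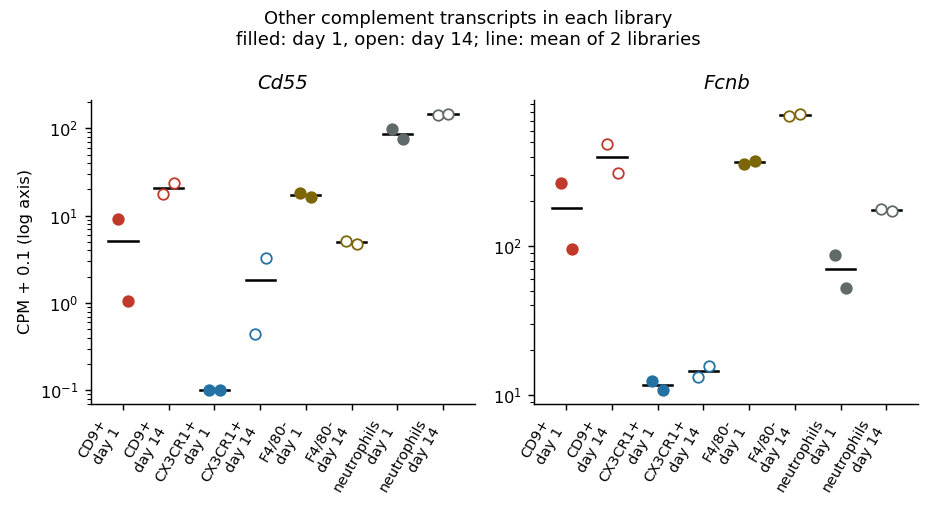
CPM + 0.1 (log axis) of Cd55 and Fcnb in each of the 16 libraries; filled points are day 1, open points day 14 and lines the mean of 2 libraries. Cd55 is highest in neutrophils (74.5 to 147.6 CPM) and Fcnb in F4/80- cells (356.6 to 780.2 CPM).

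Receptors for complement fragments on the list moved in part like the members. Itgax, the alpha chain of complement receptor 4, went from 46.9 and 53.8 CPM to 17.5 and 16.7 CPM in CX3CR1+ macrophages (log2 -1.56, standard error 0.23, adjusted p = 0.00042) and from 48.3 and 74.1 CPM to 47.4 and 55.1 CPM in CD9+ macrophages. The 2 changes differed by -1.31 (standard error 0.32, adjusted p = 0.04), in a test that called 2.84% of all tested genes. Calr, the gene of calreticulin, which can bind C1q at the cell surface besides its role as a chaperone, fell by 1.33 on the log2 scale in CX3CR1+ cells (standard error 0.15, adjusted p = 3.56e-05). Its distance from the CD9+ change was -0.89 (standard error 0.21, adjusted p = 0.0326), and these 2 of the 15 listed genes were the ones called there; with only the libraries compared, and without any 1 of 5 of the 8 macrophage libraries (both CX3CR1+ libraries of each day and CD9+ replicate 2 of day 14), 0 were, while without CD9+ replicate 1 of day 1, 5 were. Cd93 and Lrp1 fell in CD9+ macrophages, by 1.16 (standard error 0.17, adjusted p = 0.000376) and by 1.25 (standard error 0.23, adjusted p = 0.00181), but no listed gene was called there with only the libraries compared, without CD9+ replicate 2 of day 1 or without CD9+ replicate 1 of day 14. These falls were not confined to macrophages. In neutrophils Itgax, Calr, Cd93 and Lrp1 were called lower on day 14, where 14.1% of all tested genes were called. Their log2 fold changes there were -1.48, -1.83, -1.15 and -2.63 (largest adjusted p = 0.000212). Itgam, the alpha chain of complement receptor 3, encodes CD11b, which was used for the sort.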

How the data were processed

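Bulk RNA-seq of 4 sorted myeloid populations on 2 days after ACLR was analysed. Per the methods and labels, sorted cells of several mice were pooled, libraries came from a stranded SMART-Seq kit, and reads were aligned to mm10 with STAR, and reads on exons of Gencode genes were counted by the authors; the deposited values are raw counts per gene without normalization. No sample column was left unused.

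Genes with a mean CPM of at least 3 (by library total) in at least 1 group were kept, 11998 of 20200, and TMM factors were computed on them. A single fit over all 16 libraries had the 8 group means as its terms (edgeR 4.0.16, glmQLFit and glmQLFTest, R 4.3.3). Calls needed an adjusted p (Benjamini-Hochberg) under 0.05 plus a log2 fold change of 1 or more in size, and interactions the adjusted p alone. Standard errors are the log2 fold change divided by the square root of F. The common biological coefficient of variation was 0.178. An exact permutation test of 2 values against 2 cannot go below a two-sided p of 0.333, so single genes rest on the spread shared across genes. Levels are compared between genes only per kilobase of exon, from Gencode exon lengths. Total counts ran from 9233952 to 19814119 per library; intervals cover counting error only, since reads without molecular identifiers are not independent molecules. No replicate pair agreed within sampling noise.

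The members, the list of 38 other complement genes and the marker lists were chosen with earlier results of these data known. All members are named, and other listed genes only where called in a comparison described or needed as background; for each member the 3 genes with the highest Pearson correlation of log2 CPM (prior count 2) are given. The labels number the libraries of each day and the methods imply that populations of a day share mice, but no source used here ties a number to a pool, so the replicate number as a block is an alternative; deviations of same-numbered libraries from their group means correlated at 0.0132 to 0.144 across genes. C2, Mertk, Hc and Itgam were named after their values were seen. Alternatives were DESeq2 1.42.0, other scalings and filters, fits of the compared libraries alone, a replicate block and leaving out each library; a filter on TMM-scaled CPM, the block within each day for changes over time and the alternatives for single listed genes were chosen after seeing the data. Some listed genes and motifs are not reported here. The steps were tested on simulated data.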

Additional observations from a re-analysis of the deposited data

Results flagged for a closer look

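The change from day 1 to day 14 differed between CX3CR1+ and CD9+ macrophages in 5 of the 8 tested members. The test was an interaction term of the same edgeR model, called at a Benjamini-Hochberg adjusted p under 0.05. It called 2.84% of all tested genes. The difference of log2 fold changes was -3.45 for C1qa, -3.90 for C1qb, -3.79 for C1qc, -3.46 for C3ar1 and -1.78 for C5ar1.

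Against the mean of both macrophage populations, the change in F4/80- cells differed for C5ar1, by 1.48, where 1.1% of all tested genes were called. The change in neutrophils differed for C3 by -0.87, for Cfp by 0.99, for C5ar1 by 1.69 and for C5ar2 by 0.90. That comparison called 14% of all tested genes. For C5ar1 the mean joins unlike changes, -1.26 in CD9+ and -3.04 in CX3CR1+ macrophages. The C5ar1 change in F4/80- cells was -0.67, and its difference from CD9+ cells alone was not tested. The neutrophil libraries also differed from the rest in their scaling factors, which lay between 0.752 and 0.781 against 0.897 to 1.16 elsewhere.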

How the results depend on the processing

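Over 152 single-gene results, 1395 of 1424 values from other tests, scalings, filters and sample sets kept their side of the threshold. Of the rest, 22 lost a call, 7 gained one and 0 reversed. A reversal was counted only where a result was called in either fit, so uncalled results were not checked for direction. Leaving out a library kept 725 of 768, with 32 calls lost, 11 gained and 0 reversed. The counts of called members in CX3CR1+ macrophages over time (6) and between CD9+ and CX3CR1+ macrophages on day 14 (5) and day 1 (0) stayed the same under every alternative run.

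With only the libraries compared, the count fell from 2 to 1 in CD9+ cells over time and from 8 to 4 for F4/80- cells against neutrophils on day 1, which was 5 with scaling by library size only. With DESeq2 it rose from 1 to 2 in F4/80- cells over time and, for the change in F4/80- cells against the macrophages, from 1 to 2. Leaving out a library gave 1 to 2 members in CD9+ cells over time, 0 to 2 in F4/80- cells, 1 to 4 in neutrophils, 4 to 8 for F4/80- cells against neutrophils on day 1, 1 to 3 for the F4/80- change against the macrophages (3 without CD9+ replicate 1 of day 1) and 1 to 5 for the neutrophil change (2 without neutrophil replicate 2 of day 1 or replicate 1 of day 14, 1 without replicate 2 of day 14). A group left with 1 library is assumed to vary like the others. The cause was not tested.

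Counts over all genes moved more. They went from 988 to 330 in CD9+ cells over time with only the libraries compared (571 to 1734 leaving out a library), from 390 to 651 in F4/80- cells (174 to 257), from 988 to 351 for CD9+ against CX3CR1+ cells on day 1, from 1847 to 1033 for CD9+ against F4/80- cells on day 1, and from 341 to 161 for the CX3CR1+ change against the CD9+ one (656 with DESeq2, 132 to 1488 leaving out a library). The F4/80- change against the macrophages gave 132, then 83 (354 with DESeq2, 19 to 639 leaving out a library), the neutrophil change 1685 (814 to 2559), CX3CR1+ cells over time 703 (432 to 523) and CD9+ against F4/80- cells on day 14 924 (536 to 948). Scaling by library size only moved the median of all genes by 0.328 to 0.608 (log2) in comparisons with neutrophils. Elsewhere the median moved by -0.275 to 0.192, and no called member reversed.

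Populations of a day share mice, but that a number marks a shared pool is not given in the sources used here. With the replicate number as a block, the count of called members was 6 in CX3CR1+ cells over time and 5 between the macrophages on day 14, and no member call was lost. The neutrophil change of C3ar1 against the macrophages gained a call with the block within each day (5 members, against 4), and 1 other complement gene, against 0, was called in F4/80- cells over time. Low counts limit C1q outside macrophages and leave Cfb untested.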
